A study of Mus musculus with 8 samples.

Results

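The aminoacyl-tRNA synthetases of the mouse left ventricle were taken as the genes whose description in the deposited table holds the words "tRNA synthetase", pseudogenes left out. This rule found 42 of the 55679 genes in the table. They comprised 20 cytosolic enzymes, 17 mitochondrial enzymes and 5 other members, namely Aimp1, Aimp2, Aarsd1, Prorsd1 and Tarsl2. Symbols ending in 2 were held by 19 members, among them Aimp2 and Tarsl2, which are not mitochondrial synthetases and were kept apart.

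Messenger RNA of the left ventricle was measured in 4 control mice and 4 ANG II mice. Both groups were male wild-type C57BL/6J animals whose pumps ran for 7 days under the skin. The control group received saline. The ANG II group received angiotensin II, the vessel-constricting peptide of the renin-angiotensin system, at 1500 ng/kg/min. All hearts were flushed with saline before the left ventricle was taken, each library is 1 sample, and the age of the mice is not given in the sources used here. The study describes larger groups, of which these 8 libraries were analysed here.

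Each aminoacyl-tRNA synthetase joins 1 amino acid to its transfer RNA, which carries it to the ribosome. Mammals keep separate nuclear genes for most of the enzymes that serve the cytosol and for those that serve the ribosomes inside mitochondria. Several cytosolic enzymes sit in a multi-synthetase complex held together by the scaffold proteins Aimp1, Aimp2 and Eef1e1. When amino acids run short, the kinase Gcn2 acts through the transcription factor ATF4, which raises genes of amino acid synthesis and uptake and several cytosolic synthetases. Mitochondrial synthetases serve only the few proteins encoded in mitochondrial DNA, all of them parts of the respiratory chain or the ATP synthase, on which a beating heart depends.

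The libraries held 14455654 to 16564828 fragments, as read from the steps of the deposited values. Behind a single member's value stood 57 to 2609 fragments, except for Aarsd1, which had 0 to 9. Levels are in FPKM, which divides a gene's fragments by its transcript length and by the mapped total of the library. The deposited values matched lengths averaged over a gene's annotated transcripts, from 864 bases for Rars2 to 11294 bases for Mars2. Differences in level between genes or classes of enzymes thus depend in part on these lengths. Comparisons between libraries depend on the scaling, given beside the results it changes. Fold changes are differences of log2(FPKM + 1), ANG II over control, tested with limma over the 19364 genes whose mean reached 0.1 FPKM. A member passed the test at an adjusted p-value under 0.05 and was called when its absolute log2 fold change was also above 0.5. The median log2 fold change of all genes tested was 0.15, so positive values were common throughout the table. Scaling the libraries by the median of ratios moved that median to 0.00.

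The cardiomyocyte markers were at high levels in every library, with a summed level of 47364 to 48303 FPKM in control and 35506 to 38203 FPKM in ANG II for 8 genes. Of these, 5 passed the test as lower, led by Tnni3 and Myh6, where 4.91% of all genes did. All 8 fibroblast markers and all 8 macrophage markers passed as higher, with summed levels of 535 to 794 against 2840 to 3318 FPKM and of 269 to 341 against 595 to 828 FPKM. Dividing-cell markers passed as higher in 4 of 4 genes, endothelial markers in 3 of 6, T cell markers in 2 of 4, smooth muscle markers in 1 of 4 and atrial markers in 1 of 3, where 28.4% of all genes passed as higher. After median of ratios scaling, 8 fibroblast, 7 macrophage and 4 dividing-cell markers passed as higher, where 14.6% of all genes did. So did 1 endothelial, 1 T cell, 1 smooth muscle and 0 atrial markers. In that scaling 7 cardiomyocyte markers and 1 endothelial marker passed as lower, where 13.1% of all genes did. The summed level of the 3 atrial markers ran from 1.16 FPKM in control 3 to 230.5 FPKM in ANG II 3. In such bulk tissue, fewer cells of a type and less RNA per cell cannot be told apart. The part of these shifts in the results on the synthetases was not tested.

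All 42 members passed the filter on low values. The lowest mean in control belonged to Aarsd1, and the others ranged from 2.19 FPKM for Mars2 to 58.2 FPKM for Kars. Cytosolic enzymes had a median control level of 35.6 FPKM, against 15.7 FPKM for the mitochondrial ones. A mean above 10 FPKM was reached by 19 of 20 cytosolic and 10 of 17 mitochondrial enzymes. In the order of control levels, 32 of the 41 neighbouring pairs of members were no further apart than their SDs.

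Kars, which makes lysyl-tRNA for both cytosol and mitochondria from 1 gene, had the highest control mean, though not apart from Nars by more than their SDs. In ANG II the means of Nars (72.4 FPKM) and Qars (58.4 FPKM) were above that of Kars (58.1 FPKM). Its FPKM was 57.5, 56.4, 58.0 and 60.8 in the control libraries and 58.6, 52.3, 60.4 and 61.1 in the ANG II libraries. The groups overlapped, and the log2 fold change was 0.00 ± 0.06 (SE, adjusted p = 0.971). Nars, the asparaginyl-tRNA synthetase, followed and is described with the enzymes that rose. Qars, the glutaminyl-tRNA synthetase, stood at 51.8, 57.7, 48.4 and 48.2 FPKM in control and at 62.0, 59.6, 54.5 and 57.5 FPKM in ANG II. Control 2 lay among the ANG II values, and the log2 fold change of 0.18 ± 0.07 (SE) did not pass (adjusted p = 0.0692).

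At the low end, Mars2, the mitochondrial methionyl-tRNA synthetase, had 2.20, 2.00, 2.35 and 2.22 FPKM in control and 1.88, 1.80, 1.83 and 1.89 FPKM in ANG II. Every ANG II library lay below every control library, but the log2 fold change of -0.16 ± 0.09 (SE) did not pass (adjusted p = 0.198). Ears2, the mitochondrial glutamyl-tRNA synthetase, had 2.12, 3.25, 3.35 and 3.09 FPKM in control and 3.11, 3.15, 2.85 and 2.68 FPKM in ANG II, with full overlap. Aarsd1, a protein with a domain like the editing part of alanyl-tRNA synthetase, had 0.303, 0.450, 0.594 and 0.0715 FPKM in control and 0.0722, 0.206, 0.290 and 0 FPKM in ANG II. Its highest value rests on 9 fragments, a count of 0 allows up to 3, and 41.0% of its exon bases lie under another gene on the same strand, so no difference was detectable at this depth.

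**Figure D1:**
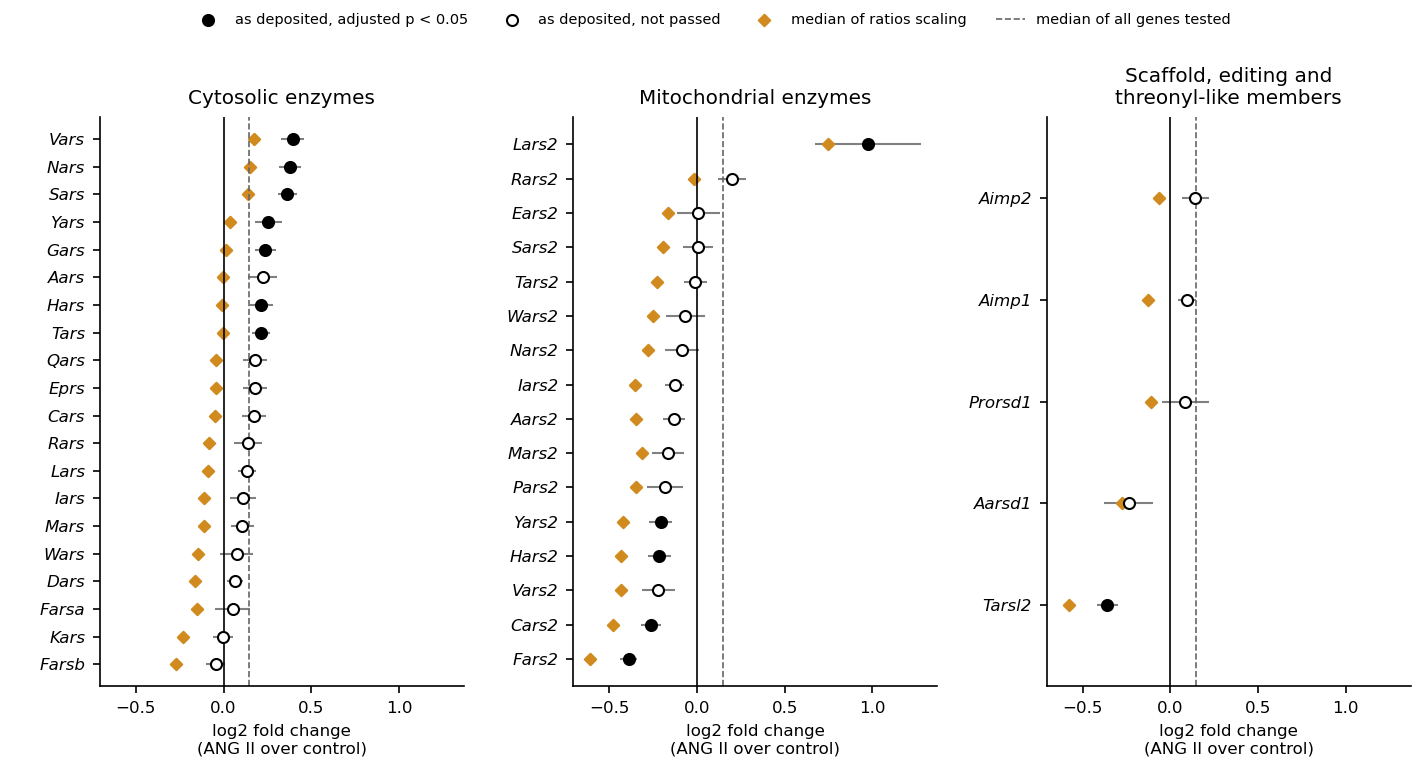
Log2 fold change of ANG II over control on log2(FPKM + 1), with SE bars, for the members in 3 classes. Filled circles passed the adjusted p, open circles did not, and diamonds give the same quantity after median of ratios scaling. Most cytosolic enzymes lie to the right of 0 and most mitochondrial enzymes to the left, and the diamonds lie to the left of the circles for every member.

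By limma with Benjamini-Hochberg adjustment over all genes, 8 of the 42 members passed as higher and 5 as lower. Among all genes tested, 28.4% passed as higher and 4.91% as lower. After median of ratios scaling the balance turned, with 0 members higher and 14 lower, when 14.6% and 13.1% of all genes passed, and 36 of the 42 log2 fold changes were below 0. With the fold threshold, in the deposited scaling, 1 member was called higher, Lars2, where 14.0% of all genes were, and 0 were called lower, where 1.41% of all genes were. ANG II and control libraries did not overlap in 7 members that were higher and in 4 that were lower, against 28.7% and 5.06% of all genes. The 29 members that did not pass had log2 fold changes from -0.24 to 0.22. In mean FPKM, the members other than Lars2 and the barely detected Aarsd1 ranged from 24.3% lower, in Fars2, to 33.3% higher, in Vars. On recovered fragments, voom also passed 8 members as higher and 5 as lower, with Mars2 in place of Yars2 among the lower.

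Cytosolic enzymes passed as higher in 7 of 20 cases (35.0%) and as lower in 0 of 20. By voom these counts were also 7 and 0, and at an unadjusted p under 0.05 they were 12 and 0, where 35.9% and 7.09% of all genes were higher and lower. Tarsl2, a second cytosolic threonyl enzyme, is counted with the other members and passed as lower. The share that rose was near that of all genes, and the median log2 fold change of the 20 enzymes, 0.18, was 0.03 above the median of all genes tested. The 7 that passed were Vars, Nars, Sars, Yars, Gars, Hars and Tars, which attach valine, asparagine, serine, tyrosine, glycine, histidine and threonine. All but Nars were chosen for full values after their results had been seen.

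Vars (chr17:35000987-35016322 in GRCm38, plus strand) had 19.4, 19.8, 20.1 and 20.4 FPKM in control and 28.6, 23.8, 25.8 and 28.1 FPKM in ANG II. No value of one group reached the other. The mean went from 19.9 ± 0.41 to 26.6 ± 2.21 FPKM (SD, n = 4 each). At 0.39 ± 0.07 (SE, adjusted p = 0.00142), its log2 fold change was the highest among the cytosolic enzymes.

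Nars had 51.6, 52.1, 59.6 and 58.8 FPKM in control and 75.9, 71.1, 67.8 and 74.7 FPKM in ANG II. Sars (chr3:108424865-108445209, minus strand), whose product also charges the transfer RNA used for selenocysteine, had 29.7, 32.0, 32.2 and 30.9 FPKM in control and 42.6, 39.6, 37.9 and 41.6 FPKM in ANG II. In both genes the lowest ANG II library stood clear of the highest control library. Nars rose by 30.3% in mean level (log2 fold change 0.38 ± 0.06, SE, adjusted p = 0.0016) and Sars by 29.5% (0.36 ± 0.05, SE, adjusted p = 0.000809).

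Yars, Gars, Hars and Tars rose by less, with differences in mean FPKM of 19.7%, 18.3%, 16.8% and 16.7%. Their log2 fold changes ran from 0.21 for Tars to 0.26 for Yars (adjusted p = 0.0108 to 0.031). Gars and Tars passed in all 8 fits that left out 1 library. Hars lost its pass in 5 of them, without control 2, control 3, control 4, ANG II 2 or ANG II 3 (adjusted p of up to 0.0836), and Yars in 7, all but the one without control 3 (adjusted p of up to 0.0741). The groups did not overlap in any of these 4 genes, although control 3 of Yars, at 29.01 FPKM, came close to the lowest ANG II library at 29.2 FPKM. Gars makes glycyl-tRNA for both cytosol and mitochondria, as Kars does for lysine, and Gars passed where Kars did not. A difference between their fold changes was not tested.

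**Figure D2:**
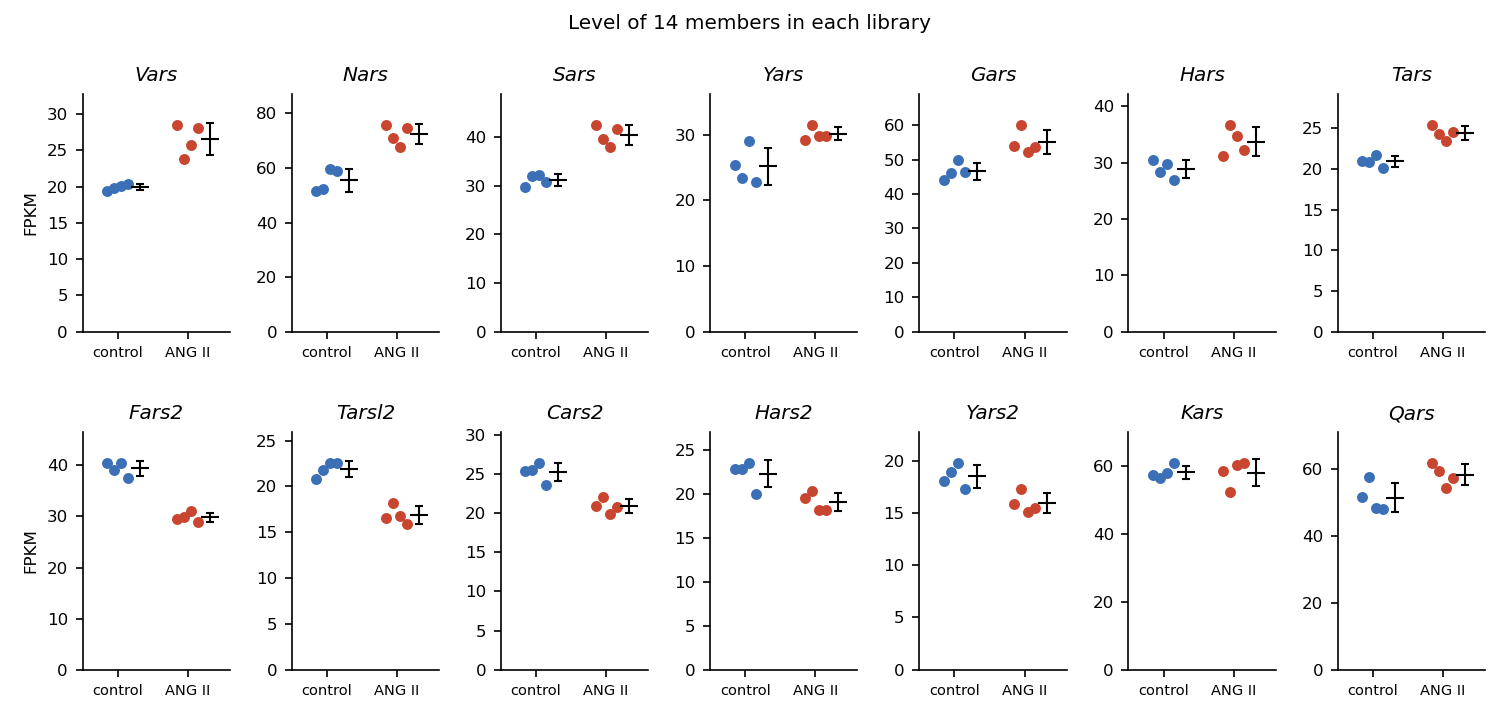
FPKM of 14 members in each library (blue control, red ANG II, 4 libraries each), with the mean and SD beside the points. The 7 cytosolic enzymes that passed are in the upper row, the 5 members that passed as lower are at the left of the lower row, and Kars and Qars, which did not pass, are at its right.

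None of the 8 cytosolic enzymes of the multi-synthetase complex (Eprs, Iars, Lars, Mars, Qars, Rars, Kars and Dars) passed. Their median log2 fold change was 0.12, with a range from 0.00 to 0.18. Eprs, which joins the glutamyl and prolyl enzymes in 1 protein, had the second highest value of the 8, 0.18 ± 0.07 (SE, adjusted p = 0.0721). Lars, the leucyl enzyme that also senses leucine for the growth kinase mTORC1, had a log2 fold change of 0.13 ± 0.05 (SE, adjusted p = 0.0833). The 12 enzymes outside the complex had a median of 0.22, and all 7 that passed were among them. At an unadjusted p under 0.05, 3 of the 8 and 9 of the 12 were higher, where 35.9% of all genes were, and voom passed 0 and 7. By the fold of the catalytic domain, which divides synthetases into class I and class II, 2 of 9 class I and 5 of 10 class II cytosolic enzymes passed as higher, Eprs counted in neither, where 28.4% of all genes did. The division by complex was made after the values had been seen, and a difference between the subgroups was not tested. The scaffold genes Aimp1 and Aimp2 had log2 fold changes of 0.10 and 0.14 and did not pass (adjusted p = 0.179 and 0.18), and 29.4% of the exon bases of Aimp2 lie opposite another gene. The third scaffold gene, Eef1e1, had -0.13 ± 0.09 (SE, adjusted p = 0.279).

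Of the other cytosolic enzymes, Aars, Cars, Wars, Farsa and Farsb did not pass. Aars, the alanyl enzyme, was nearest, at 0.22 ± 0.08 (SE, adjusted p = 0.0668), with 14.3% of its exon bases under another gene on the same strand. Farsa and Farsb, which build the phenylalanyl enzyme together, had 0.05 and -0.05. Wars, the tryptophanyl enzyme known for its induction by interferon gamma, had 0.07 ± 0.10 (SE, adjusted p = 0.59). The list of 10 interferon gamma genes set beside it held 0 genes that passed in either direction, with a median of 0.30. At an unadjusted p under 0.05, 4 of the 10 were higher, where 35.9% of all genes were, and voom passed 1.

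The counts of cytosolic enzymes that passed depended on how the libraries were scaled. After median of ratios scaling 0 of 20 passed as higher in limma (2 at an unadjusted p under 0.05, where 19.8% of all genes were higher) and 3 as lower, namely Farsb, Kars and Dars, when 14.6% and 13.1% of all genes passed. Only 5 of the 20 log2 fold changes were then above 0, those of Vars, Nars, Sars, Yars and Gars. Vars had 0.17 (adjusted p = 0.0664), Nars 0.15 (adjusted p = 0.153) and Sars 0.14 (adjusted p = 0.0936), while Hars and Tars fell to -0.01 each.

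Several cytosolic synthetase genes are known targets of ATF4, which binds a C/EBP-ATF response element. Its core was searched as TGATGNAA on both strands of the RefSeq promoter windows in GRCm38.p6, 250 bases before to 50 bases after each start site. Windows were found for 32 of the 42 members, Mars under its newer symbol Mars1. Those without one in the table included Cars, Hars, Hars2, Lars, Nars, Pars2, Rars, Vars and Wars. The letters occurred in 5 of 13 cytosolic members (38.5%), in 0 of 14 mitochondrial members and in 0 of 5 others, against 4.51% of all 27025 genes in the table. Stretches of 30 bases around matches in Gars, Tars, Yars and Iars are shown because they set cytosolic members with this element beside Asns, the asparagine synthetase gene that is a standard ATF4 target. Capitals mark the match, and each is written 5′ to 3′ on the strand that reads TGATGNAA.
Gars, chr6:55037960-55037989, minus strand: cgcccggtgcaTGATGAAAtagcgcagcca
Tars, chr15:11399655-11399684, plus strand: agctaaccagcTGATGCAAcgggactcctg
Yars, chr4:129189895-129189924, plus strand: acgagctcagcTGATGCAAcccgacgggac
Iars, chr13:49682126-49682155, minus strand: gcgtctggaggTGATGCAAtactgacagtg
Asns, chr6:7693214-7693243, minus strand: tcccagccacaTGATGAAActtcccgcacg

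Measured along the gene from the start site, the nearest match began 30 bases before it in Gars and 15 before in Tars. It began 3 bases after the start in Yars, 7 after in Iars and 9 after in Aars. Asns had its match 23 bases before the start. Of the 5 synthetase genes with a match, Gars, Tars and Yars passed as higher and Aars and Iars did not. Sars passed without a match in its window, and the windows of Vars, Nars and Hars were not in the table. A match of letters is a description and not a site shown to be bound.

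The list of 34 ATF4 pathway genes held larger fold changes than the synthetases. Of the 33 tested, 16 were called higher and 1 lower, where 14.0% and 1.41% of all genes were. The median log2 fold change was 0.51, beside 0.18 for the cytosolic enzymes and 0.15 for all genes. The 4 called genes with the largest change were Nupr1, a stress-induced chromatin protein, at 1.92, Mthfd2, a mitochondrial folate enzyme, at 1.59, Pycr1, which completes proline synthesis, at 1.33, and Phgdh, which opens serine synthesis, at 1.13. Asns had 4.43, 2.50, 2.51 and 3.32 FPKM in control and 7.5, 6.88, 5.31 and 5.21 FPKM in ANG II, a log2 fold change of 0.80 ± 0.17 (SE, adjusted p = 0.00485). Its groups did not overlap. Atf4 itself had 47.6, 38.9, 50.7 and 38.4 FPKM in control and 68.8, 60.2, 49.3 and 69.97 FPKM in ANG II. ANG II 3 lay below control 3, and the log2 fold change of 0.49 ± 0.13 (SE, adjusted p = 0.0139) passed the test without reaching the fold threshold. The gene called lower was Cth, an enzyme of cysteine synthesis, at -0.67. Under median of ratios scaling 13 were called higher and under quantile normalization 8. In these settings 2475 and 2399 of all genes were called in either direction, against 2981 as deposited. At the adjusted p alone, 18 passed as higher and 3 as lower in the deposited scaling, where 28.4% and 4.91% of all genes did. After median of ratios scaling 15 and 4 passed, when 14.6% and 13.1% of all genes did, and Atf4 did not pass (adjusted p = 0.14). Fibroblast, macrophage and dividing-cell markers were higher in the same libraries, and their part in this was not tested.

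**Figure D3:**
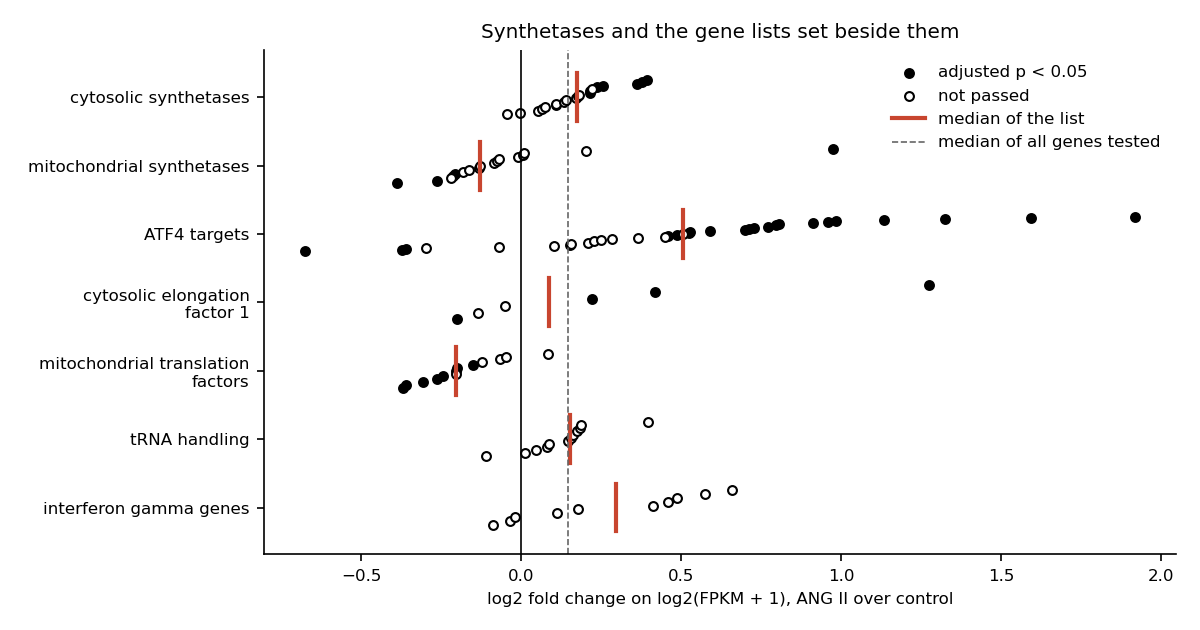
Log2 fold change of ANG II over control for the cytosolic and mitochondrial synthetases and the lists set beside them. Filled points passed the adjusted p, red bars mark each list's median and the dashed line the median of all genes tested, 0.15. The ATF4 list has the highest median, 0.51, and the mitochondrial translation factors the lowest, -0.20.

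Mitochondrial enzymes passed as lower in 4 of 17 cases (23.5%), where 4.91% of all genes did, and as higher in 1. Their median log2 fold change was -0.13, which is 0.28 below the median of all genes tested. The 4 were Fars2, Cars2, Hars2 and Yars2, which attach phenylalanine, cysteine, histidine and tyrosine inside mitochondria. The summed level of all 17 enzymes was 270 to 332 FPKM in control and 279 to 302 FPKM in ANG II, within overlapping ranges. Without Lars2, the summed level of the other 16 enzymes was 248 to 267 FPKM in control and 221 to 246 FPKM in ANG II. The sum over the 20 cytosolic enzymes was 696 to 738 against 775 to 824 FPKM.

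Fars2 (chr13:36117412-36726280, plus strand) had 40.4, 39.1, 40.6 and 37.6 FPKM in control and 29.46, 29.96, 31.01 and 28.96 FPKM in ANG II. All ANG II libraries were well below all control libraries, and the values within a group were close. Group means were 39.4 ± 1.40 and 29.9 ± 0.88 FPKM (SD, n = 4 each), and limma put the log2 fold change at -0.39 ± 0.05 (SE, adjusted p = 0.000293). For Fars2, 10.7% of the exon bases lie opposite the gene Nrn1.

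Cars2 (chr8:11513977-11550783, minus strand) had 25.4, 25.5, 26.5 and 23.6 FPKM in control and 20.9, 22.0, 19.9 and 20.7 FPKM in ANG II. Here too the groups did not overlap, and the mean level was 17.2% lower (log2 fold change -0.26 ± 0.06, SE, adjusted p = 0.00609). Hars2 had 22.8, 22.9, 23.6 and 20.0 FPKM in control and 19.5, 20.4, 18.2 and 18.2 FPKM in ANG II. Yars2 had 18.1, 18.9, 19.8 and 17.2 FPKM in control and 15.8, 17.3, 15.1 and 15.4 FPKM in ANG II. In Hars2 and Yars2, the lowest control library, control 4, lay just under the highest ANG II library, ANG II 2, and the log2 fold change was -0.21 ± 0.07 for each (SE, adjusted p = 0.0352 and 0.0374). Each lost its pass in 6 of the 8 fits that left out 1 library, namely without control 1, control 2, control 3, ANG II 1, ANG II 3 or ANG II 4, with an adjusted p of up to 0.0945 for Hars2 and 0.1 for Yars2. Both were chosen for full values after their results had been seen. Hars and Hars2 lie head to head on chromosome 18 and overlap, with 7.97% of the exon bases of Hars and 4.56% of those of Hars2 opposite the other gene. Hars passed as higher and Hars2 as lower.

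The other mitochondrial enzymes that did not pass ran from -0.22 for Vars2 to 0.20 for Rars2. Besides Vars2 these included Pars2, Mars2, Aars2, Iars2, Nars2, Wars2 and Tars2 with values below 0, and Sars2, Ears2 and Rars2 with values above 0. Iars2 shares 24.2% of its exon bases with a gene on the opposite strand. Under median of ratios scaling all 16 enzymes other than Lars2 had a negative fold change and 10 of the 17 passed as lower, where 13.1% of all genes did. Fars2 was then at -0.61 (adjusted p = 4.77e-05) and Cars2 at -0.48 (adjusted p = 0.000316).

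Tarsl2, a cytosolic threonyl-tRNA synthetase that resembles Tars, fell as well. Its gene lies at chr7:65644898-65692091 on the plus strand. Tarsl2 had 20.8, 21.8, 22.5 and 22.6 FPKM in control and 16.6, 18.2, 16.8 and 15.9 FPKM in ANG II, without overlap, and the log2 fold change was -0.36 ± 0.06 (SE, adjusted p = 0.00142). Tars moved the other way, from 20.9, 20.9, 21.7 and 20.1 FPKM in control to 25.4, 24.3, 23.4 and 24.5 FPKM in ANG II (log2 fold change 0.21 ± 0.05, SE, adjusted p = 0.0108). Their control means were 21.9 FPKM for Tarsl2 and 20.9 FPKM for Tars. Prorsd1, an editing protein that clears mischarged transfer RNA, had 0.09 ± 0.14 (SE, adjusted p = 0.667).

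Lars2, the mitochondrial leucyl-tRNA synthetase (chr9:123366927-123462666, plus strand), was the called member, and 1 control library stood against its call. Lars2 had 20.6, 22.9, 65.2 and 22.9 FPKM in control and 58.5, 56.6, 58.0 and 58.9 FPKM in ANG II. Control 3 lay above every ANG II library, and the other 3 controls were far below them. Its mean was 32.9 ± 21.6 FPKM in control against 58.0 ± 1.00 FPKM with ANG II (SD, n = 4 each), and the log2 fold change was 0.97 ± 0.30 (SE, adjusted p = 0.0326). An exact two-sided permutation test over the 70 allocations of the libraries gave p = 0.143, against a smallest possible p of 0.0286. Without control 3, the log2 fold change was 1.35 (adjusted p = 8.15e-06), while leaving out any other library ended the call (adjusted p = 0.0729 to 0.0965). Median of ratios scaling also ended it, at 0.75 (adjusted p = 0.105).

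The same libraries were high in rows for ribosomal RNA, which were picked after the pattern had been seen. The mitochondrial 12S ribosomal RNA gene mt-Rnr1 had 300, 268, 4567 and 265 FPKM in control and 2327, 2067, 2273 and 2821 FPKM in ANG II. CT010467.1, described as related to 18S RNA, had 34.5, 43.3, 612 and 36.2 FPKM in control and 684, 734, 627 and 754 FPKM in ANG II. The larger mitochondrial ribosomal RNA, mt-Rnr2, did not share the pattern, with 5997 to 9583 FPKM in control and 3392 to 4973 FPKM in ANG II. Lars2 shares 0.196% of its 50-base words with transcripts of other genes. That search took exact matches to GENCODE M21 transcripts only, so it cannot show likeness to inexact copies or to sequences outside that set. The part of ribosomal RNA carried into the libraries in the values of Lars2 was not tested.

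**Figure D4:**
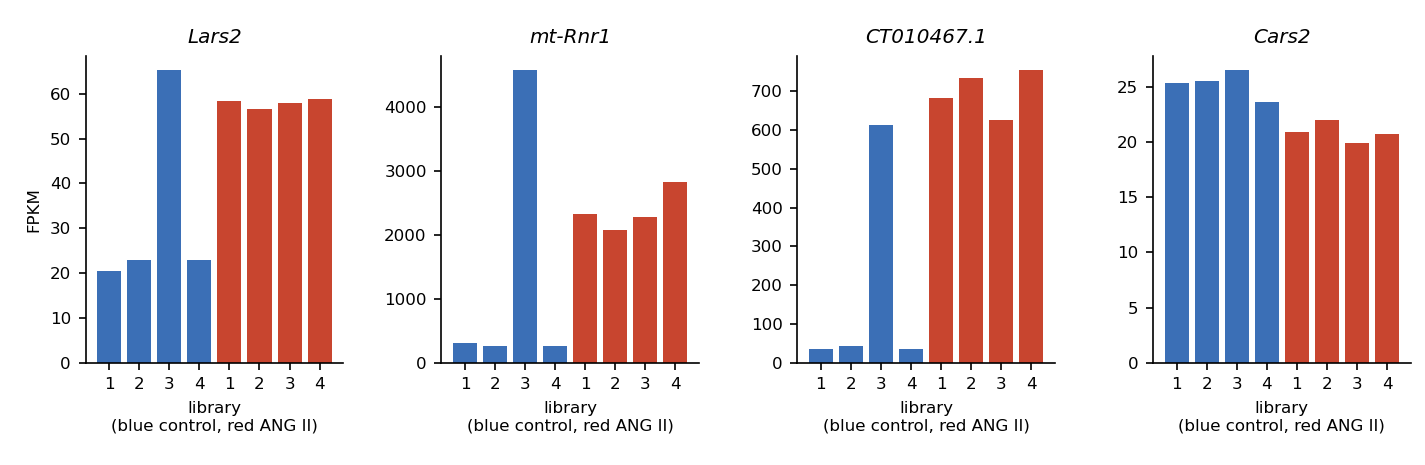
FPKM of Lars2, mt-Rnr1, CT010467.1 and Cars2 in each of the 4 control (blue) and 4 ANG II (red) libraries, each panel with its own axis from 0. Control 3 stands with the ANG II libraries in Lars2, mt-Rnr1 and CT010467.1, and with the other controls in Cars2.

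Because the scaling of the libraries moves all members together, the cytosolic and the mitochondrial enzyme for the same amino acid were also set against each other within each library, as the log2 ratio of their FPKM. Such a ratio does not depend on scaling. Over 16 pairs, counting Eprs with both Ears2 and Pars2, the mean log2 ratio was higher in ANG II in 14 and lower in 2, with a median difference of 0.37. No test was made on the ratios.

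Vars/Vars2 rose most. Its log2 ratio was 0.48, 0.55, 0.62 and 0.73 in control and 1.21, 0.92, 1.44 and 1.42 in ANG II. In FPKM, Vars went from 1.51 to 2.37 times Vars2, multiples that also depend on the transcript lengths used. The pairs given singly here were chosen after their values were seen, and others differed by as much as Yars/Yars2 and Hars/Hars2. Yars/Yars2 went from 0.49, 0.31, 0.55 and 0.40 to 0.88, 0.87, 0.98 and 0.95. Hars/Hars2 went from 0.42, 0.31, 0.34 and 0.43 to 0.67, 0.85, 0.93 and 0.82. In these pairs no ANG II library fell within the control range.

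Differences of 0.36 to 0.48 in the mean log2 ratio were also seen for Nars, Farsa, Cars, Eprs with Pars2, Aars, Sars and Mars over their partners. Of these cytosolic enzymes, Nars and Sars had passed the test alone and the others had not. For Farsa/Fars2 the mean log2 ratio went from -2.08 ± 0.17 to -1.62 ± 0.17 (SD, n = 4 each), so Fars2 remained above Farsa. Farsb, the other subunit gene of the cytosolic enzyme, was not among the pairs. Its mean was 37.6 FPKM with saline and 36.4 FPKM with ANG II, where Fars2 had 39.4 and 29.9 FPKM. Farsb was thus below Fars2 in control, within their SDs, and above it in ANG II. Such orders also depend on the transcript lengths used. Tars/Tars2 and Iars/Iars2 differed by 0.23 and 0.24, and Wars and Eprs with Ears2 by 0.16 and 0.17, within overlapping ranges except for Tars/Tars2. Rars/Rars2 was 0.07 lower in ANG II (1.00 ± 0.11 against 0.93 ± 0.05, SD, n = 4 each). Lars/Lars2 was 1.18, 1.14, -0.50 and 1.05 in control and -0.15, -0.18, -0.20 and -0.07 in ANG II, again with control 3 on the side of ANG II.

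**Figure D5:**
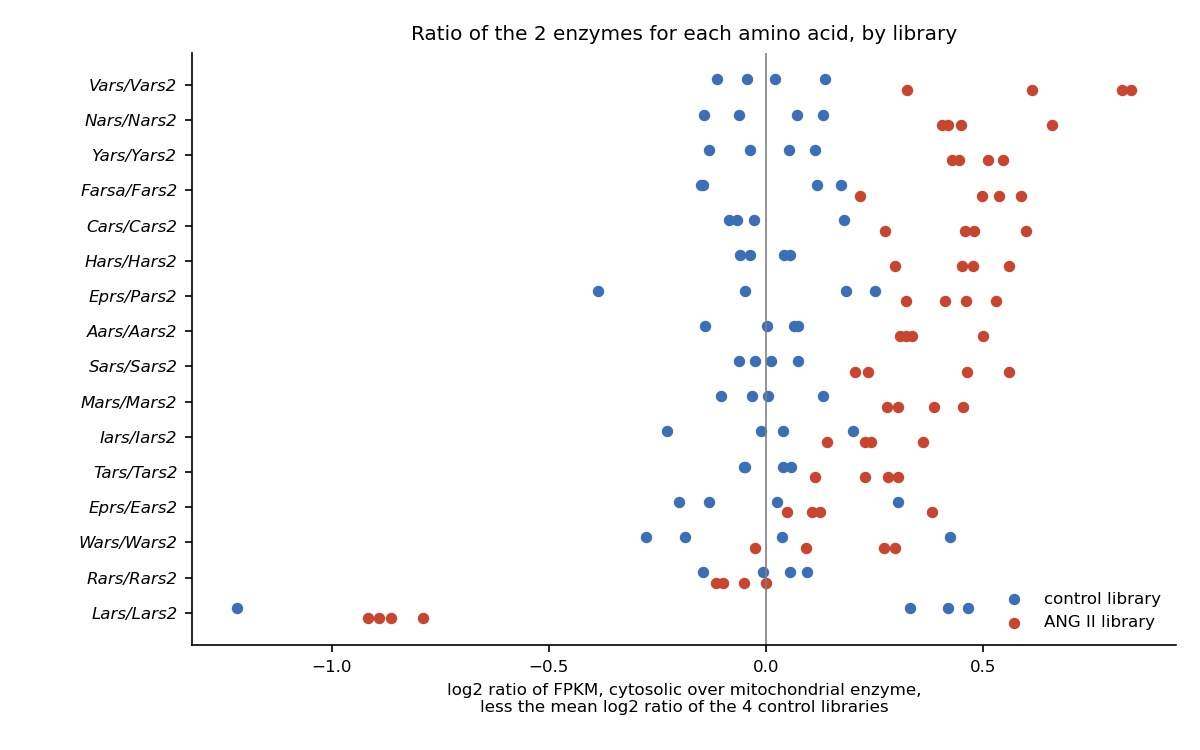
Log2 ratio of FPKM of the cytosolic over the mitochondrial enzyme in each library for 16 pairs, less the mean of the 4 control libraries (blue control, red ANG II). The mean of the red points lies to the right of 0 in 14 pairs, and in Lars/Lars2 1 blue point lies left of all red ones.

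Several other genes of mitochondrial translation were also lower. Of 13 factors tested, 8 passed as lower (7 by voom), where 4.91% of all genes did, and 0 passed as higher, where 28.4% did. None was higher by voom or at an unadjusted p under 0.05, and the median log2 fold change was -0.20. Tufm, the elongation factor that brings charged transfer RNA to the mitochondrial ribosome, had 196, 201, 214 and 197 FPKM in control and 154, 184, 144 and 146 FPKM in ANG II (log2 fold change -0.37 ± 0.08, SE, adjusted p = 0.00507). Its groups did not overlap. Qrsl1 and Gatb, subunits of the amidotransferase that makes mitochondrial glutaminyl-tRNA from the product of Ears2, also fell, by 0.36 and 0.20 on the log2 scale, while the third subunit gene, Gatc, had -0.05 (adjusted p = 0.629). These genes were singled out after their values were seen. Transcripts of mitochondrially encoded genes took 26.3 to 27.0% of all fragments in control and 19.2 to 21.8% in ANG II. Of the 8 cardiomyocyte markers, 5 passed as lower in the same libraries, where 4.91% of all genes did. The part of either in the lower mitochondrial synthetases was not tested.

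In the cytosol, elongation factor 1 carries charged transfer RNA to the ribosome. Of 6 genes named for it, 3 passed as higher and 1 as lower, where 28.4% and 4.91% of all genes did. Median of ratios scaling turned this to 1 higher and 3 lower. The 6 include the scaffold gene Eef1e1, which was among those lower in limma after that scaling (adjusted p = 0.013). Eef1a1, the common form of the carrier, had 849, 865, 684 and 781 FPKM in control and 2174, 1767, 1995 and 1758 FPKM in ANG II. It was called, at 1.27 ± 0.10 (SE, adjusted p = 1.83e-05), although it has many processed copies in the genome whose reads cannot always be told apart. Eef1a2, the form of muscle and neurons, was the gene that fell, by 0.20 on the log2 scale (adjusted p = 0.0239). None of the 12 genes of transfer RNA handling, which include Prorsd1 and the export factor Xpot, passed in either direction by limma or voom as deposited, with a median log2 fold change of 0.15. At an unadjusted p under 0.05, 4 of them were higher and 0 lower, where 35.9% and 7.09% of all genes were. After median of ratios scaling the median was -0.05 and 1 gene passed as lower by limma (adjusted p = 0.0338). It was Trnt1, which adds the last bases of transfer RNA and is named after its value was seen.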

How the data were processed

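Left ventricles of 4 saline and 4 ANG II mice were sequenced from oligo(dT)-enriched RNA, and groups follow the treatment labels. The authors deposited 1 table of FPKM values per gene, with no pooling. Bowtie2, HISAT and RSEM are named in the submitters' processing notes without roles or versions, and the genome build, annotation and use of strand are not given in the sources used here. The extraction text in the labels names another material than heart, and cardiomyocyte markers were at high levels in all libraries.

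FPKM values were used as deposited. Positions, transcript lengths and overlaps came from GENCODE M21 (GRCm38). The deposited FPKM values below 60 fragments fell on whole fragments (tolerance 0.05) in 97.6 to 98.1% of values of genes with several exons, which gave the depth. A floor of 3 fragments stands for a value of 0 and covers counting error only.

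The test was limma 3.58.1 in R 4.3.3, with a variance trend, on log2(FPKM + 1), for genes whose mean reached 0.1 FPKM. Two-sided p-values were corrected by the Benjamini-Hochberg method over 19364 genes. Called genes had an adjusted p under 0.05 and an absolute log2 fold change above 0.5. Scripts were tested on simulated data. Python 3.11.15, numpy 2.4.6, pandas 2.3.3 and matplotlib 3.10.9 were used for the rest.

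Members, gene lists (ATF4 pathway, elongation factor 1, mitochondrial translation, transfer RNA handling, interferon gamma genes and cell type markers) and subgroups were chosen with earlier results of these data known. Values by library are given for called members, for the 3 highest and 3 lowest members by control mean, and for the 3 with the lowest log2 fold change. Of each list, up to 4 called genes with the largest change could be named, and Atf4 and Asns in any case. Others are marked. Same-numbered libraries of the 2 groups did not deviate together (correlations of -0.032 to 0.062), so the numbers were not taken as pairs. Alternatives covered the pseudocount, filter, scaling, variance trend, a replicate block, the fold threshold and each library left out, and voom on recovered fragments was added after seeing the data. Promoter windows are RefSeq (GRCm38.p6). Protein sequences were not analysed here. Some items are not reported singly, though counts over the members keep them.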

Additional observations from a re-analysis of the deposited data

Results flagged for a closer look

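Among 84 groups of 4 libraries, 42 members in each treatment, 3 held a library whose gap to its nearest neighbour exceeded the 95% critical value of Dixon's test. Chance flags about 1 in 20 such groups. In Lars2, control 3 was at 65.2 FPKM and the other controls at 20.6 to 22.9 FPKM. In Farsa, ANG II 3 was at 8.55 FPKM and the other ANG II libraries at 10.04 to 10.32 FPKM. In Pars2, ANG II 4 was at 2.86 FPKM and the others at 2.36 to 2.44 FPKM.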

How the results depend on the processing

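The counts depended on scaling. The numbers of members that passed the adjusted p as higher and as lower, 8 and 5 as reported, were 0 and 14 with median of ratios scaling, 2 and 17 with quantile normalization, and 3 and 9 when the total left out mitochondrially encoded genes and the 10 highest genes. For cytosolic enzymes passing as higher (7) these settings gave 0, 2 and 3, and for mitochondrial enzymes passing as lower (4) they gave 10, 14 and 7. The whole table moved too, and the median log2 fold change of all genes, 0.15 as reported, was 0.00, -0.04 and 0.05. With median of ratios scaling 14.6% of all genes passed as higher and 13.1% as lower. These shares were not counted for the other settings. Lars2, the 1 member called higher, was not called (0) under these settings, with no filter, or with a fold threshold of 1, and 2 members were called lower (0 as reported) under each of these scalings. Called translation partners (1) became 4, 4 and 2, and ATF4 genes called higher (16) became 8 under quantile normalization and 4 with a fold threshold of 1. Without a fold threshold the called counts were 8 members higher, 5 lower, 7 cytosolic higher, 12 partners and 6447 genes in all (2981 as reported, 795 with a threshold of 1). Without the variance trend 3 members, 2 of them mitochondrial, passed as lower.

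Of the 42 fold changes, 25 were above 0 as deposited and 6 with median of ratios scaling. Among members that passed as deposited or after that scaling, the sign changed in Dars (-0.16), Hars (-0.007) and Tars (-0.0061). With quantile normalization, where members that passed in neither also changed sign, it did so among the others in Tars (-0.0093) and Sars2 (-0.30). Fars2, Cars2 and Tarsl2 passed as lower under all 17 alternatives, and voom on recovered fragments kept every count of members within 1.5 times. Over the 713 refits of single members, 624 kept their side of the threshold, 56 lost it and 28 gained it. The other 5 were the changes of sign named above, each of which also crossed the threshold.

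Leaving out each library in turn gave 0 to 1 members called higher (mitochondrial also 0 to 1), 5 to 8 passing as higher, 3 to 5 as lower, 2 to 4 mitochondrial as lower and 1 to 2 partners called. Members passing as lower were 3 without control 2, control 3, ANG II 1, ANG II 3 or ANG II 4, and those passing as higher were 5 without control 4 or ANG II 2. With replicate number as a block, 3 members passed as lower, 2 of them mitochondrial. Hars, Yars, Hars2 and Yars2 did not pass with the block, and no other count reported here moved by more than 1.5 times. The cause of these changes was not tested. Protein comparisons that were planned were not run.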
